A study of Homo sapiens with 24 samples.

Results

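The genes that encode the core of transforming growth factor-β (TGF-β) signaling were examined for chromatin occupancy by S100A8 and S100A9. They comprise the ligands TGFB1, TGFB2 and TGFB3, the receptors TGFBR1 and TGFBR2, the receptor SMADs SMAD2 and SMAD3, the common SMAD SMAD4, and the inhibitory SMADs SMAD6 and SMAD7. These 10 genes, of 20098 protein-coding genes on chromosomes 1 to 22 and X, were chosen by name, with earlier results of these data known. A peak was counted at a gene when its summit lay in the gene body or within 50 kb of it, and no peak was counted at more than 1 of the 10 genes.

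The cells were MCF-10A, a nontransformed line of human mammary epithelial cells, carrying ER-Src, in which v-Src is fused to the ligand-binding domain of the estrogen receptor. Stable lines made with a retroviral vector expressed S100A8 or S100A9 with a Flag tag at the C terminus, in addition to the endogenous proteins. Cells of both lines were kept for 24 hours in 1 μM 4-hydroxytamoxifen (TAM), which activates the Src fusion, or in its solvent ethanol (EtOH). Proteins were cross-linked to each other before the usual formaldehyde step, and chromatin was precipitated with an antibody to Flag. The peak lists of 11 libraries were used, with 2 biological replicates of the S100A8-Flag line in EtOH and 3 for each other combination of line and treatment. Every group carried ER-Src and a Flag-tagged protein, and chromatin of cells without a tag was not analyzed here. The lists give where a tagged protein was precipitated and hold no RNA levels.

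TGF-β ligands are secreted in a latent form and, once released, bind the type II receptor TGFBR2, which phosphorylates the type I receptor TGFBR1. The activated type I receptor phosphorylates SMAD2 and SMAD3, which join SMAD4, enter the nucleus and act on genes together with factors such as AP-1. SMAD6 and SMAD7 inhibit the pathway and are themselves induced by it. In mammary epithelium the pathway is known for restraining proliferation and, in transformed cells, for promoting the epithelial-mesenchymal transition.

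Confident sites were regions with peaks at q ≤ 1e-07 in at least 2 replicates of a condition, merged over the conditions. There were 58 such sites at the 10 genes, of 30322 in all, and they were numbered along the chromosome within each gene. The sequence around the summit is given for 11 of them, to show the DNA at the promoters and distal sites on which the results turn. Coordinates are those of hg19 (GRCh37), all sequences are of the plus strand, and they were read from the reference genome. Capitals mark matches to AP-1 (TGAGTCA or TGACTCA), ETS (CGGAAG), KLF/SP1 (CCCCGCCC), CREB (TGACGTCA) and the SMAD palindrome GTCTAGAC on either strand. The sequences of TGFB1 site 6, TGFB3 site 1, TGFBR1 site 1, TGFBR2 site 3, SMAD2 site 2, SMAD3 site 11 and SMAD6 site 3 are from promoters of these genes, and the others are from introns or flanking DNA.
TGFB1 site 6 (chr19:41859989-41860109): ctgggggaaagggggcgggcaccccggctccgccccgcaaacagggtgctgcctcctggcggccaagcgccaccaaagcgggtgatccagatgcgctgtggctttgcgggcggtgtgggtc
TGFB2 site 3 (chr1:218550793-218550913): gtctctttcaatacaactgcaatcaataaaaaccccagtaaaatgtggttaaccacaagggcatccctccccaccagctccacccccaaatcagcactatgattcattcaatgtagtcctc
TGFB3 site 1 (chr14:76448863-76448983): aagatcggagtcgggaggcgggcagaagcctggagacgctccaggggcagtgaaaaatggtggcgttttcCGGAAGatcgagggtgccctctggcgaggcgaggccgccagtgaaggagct
TGFBR1 site 1 (chr9:101866912-101867032): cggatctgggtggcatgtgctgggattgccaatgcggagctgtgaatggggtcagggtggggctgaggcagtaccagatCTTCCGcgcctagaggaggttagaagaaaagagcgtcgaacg
TGFBR2 site 3 (chr3:30648013-30648122): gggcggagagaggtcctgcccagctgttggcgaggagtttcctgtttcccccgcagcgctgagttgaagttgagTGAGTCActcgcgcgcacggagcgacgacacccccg
SMAD2 site 2 (chr18:45457622-45457742): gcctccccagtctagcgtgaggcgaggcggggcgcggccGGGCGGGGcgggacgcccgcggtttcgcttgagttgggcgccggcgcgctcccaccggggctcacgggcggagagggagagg
SMAD3 site 11 (chr15:67419763-67419883): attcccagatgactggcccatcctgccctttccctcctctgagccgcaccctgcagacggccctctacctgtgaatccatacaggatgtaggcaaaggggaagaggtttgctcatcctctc
SMAD4 site 2 (chr18:48636833-48636953): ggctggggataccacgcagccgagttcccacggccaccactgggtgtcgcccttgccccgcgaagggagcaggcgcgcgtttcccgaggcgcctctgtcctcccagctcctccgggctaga
SMAD6 site 3 (chr15:66994471-66994591): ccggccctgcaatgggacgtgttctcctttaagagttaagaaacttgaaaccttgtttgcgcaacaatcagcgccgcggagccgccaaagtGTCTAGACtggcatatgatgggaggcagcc
SMAD6 site 5 (chr15:67095637-67095757): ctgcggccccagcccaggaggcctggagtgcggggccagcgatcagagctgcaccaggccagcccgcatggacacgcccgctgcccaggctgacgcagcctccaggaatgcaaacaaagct
SMAD7 site 2 (chr18:46428482-46428602): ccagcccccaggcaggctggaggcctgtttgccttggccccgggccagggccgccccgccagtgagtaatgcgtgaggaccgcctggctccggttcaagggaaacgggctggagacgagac

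All 11 lists are of unknown depth, since they give no read numbers. At q ≤ 1e-07 the EtOH lists held 1853 to 4609 peaks and the TAM lists 21518 to 40735 peaks. A lower depth and weaker binding cannot be told apart where fewer peaks pass the threshold. A peak over the coding exons of S100A9 was seen in every S100A9-Flag library (6 of 6) and once among the 5 S100A8-Flag libraries. Coding exons of S100A8 held no peak in any library, so that this check says nothing of the S100A8-Flag labels.

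More peaks lay at the TGF-β genes in TAM than in EtOH, and the lists as a whole were also longer in TAM. S100A8-Flag had 8 and 6 peaks at the 10 genes in EtOH, and 47, 45 and 31 in TAM. S100A9-Flag had 9, 3 and 13 peaks in EtOH, and 46, 52 and 63 in TAM. Every TAM library lay above every EtOH library. The mean was 7.80 ± 3.70 peaks in EtOH (SD, n = 5) and 47.3 ± 10.4 in TAM (SD, n = 6), a ratio of 6.07. For all peaks at the same threshold, the ratio of the means was 7.25. The difference of log2(peaks + 1), averaged over both proteins, was 2.55 (exact permutation test within each protein, two-sided, p = 0.01, the smallest p that 200 arrangements can give). It was 2.38 for S100A8-Flag alone (p = 0.2 of an exact permutation test) and 2.72 for S100A9-Flag alone (p = 0.1), each the smallest p that its design allows.

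The genes did not take a detectably larger share of the lists in TAM. Per 1000 peaks of a library, S100A8-Flag had 1.85 and 1.30 peaks at the 10 genes in EtOH, and 1.60, 1.87 and 1.44 in TAM. S100A9-Flag had 2.50, 1.62 and 2.83 per 1000 peaks in EtOH, and 1.80, 2.17 and 1.55 in TAM. The groups overlapped for both proteins. The difference of the log2 share, TAM minus EtOH, was -0.12 (exact permutation test, p = 0.49). When every deposited peak was kept, down to q = 0.05, this difference was -0.42 (exact permutation test, p = 0.01), a smaller share in TAM. With the 1853 top peaks by q value of each list, the difference in peak number was 0.12 on the log2 scale (exact permutation test, p = 0.67).

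**Figure D1:**
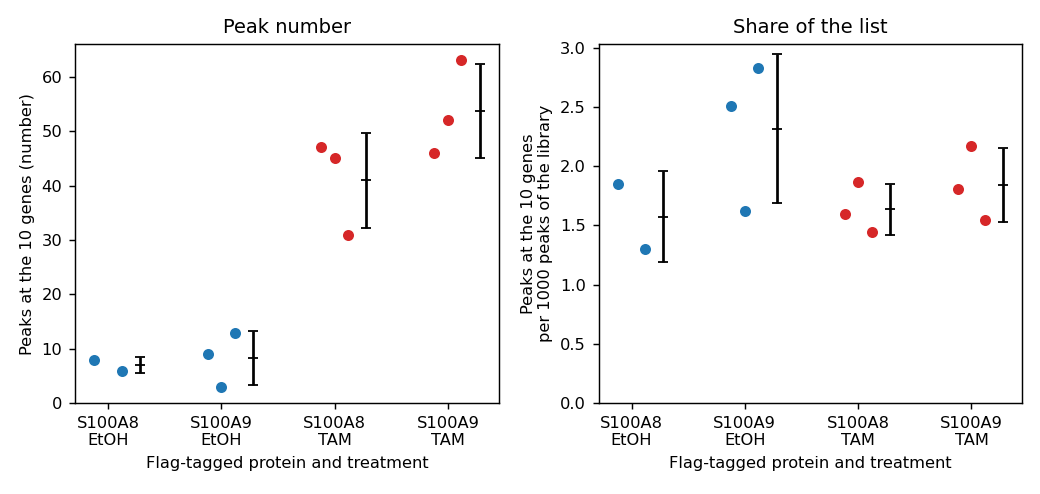
Number of peaks at the 10 genes (left) and the same number per 1000 peaks of the library (right), for each library by Flag-tagged protein and treatment. Points are libraries and bars are mean ± SD of 2 or 3 libraries. The TAM libraries hold 31 to 63 peaks and the EtOH libraries 3 to 13, whereas the shares overlap between 1.30 and 2.83.

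The proteins could be compared only weakly at these genes. The log2 share for S100A9-Flag minus that for S100A8-Flag was 0.16 in TAM (exact permutation test, p = 0.5, where the design allows no p under 0.1) and 0.54 in EtOH (exact permutation test, p = 0.4, where it allows none under 0.2). Neither comparison could pass a threshold of 0.05. The direction in TAM turned to -0.055 at q ≤ 1e-10, to -0.075 with every deposited peak and to -0.42 with the 1853 top peaks, and in EtOH it turned to -0.24 with the top peaks and to -0.23 with 100 kb flanks. The effect of TAM on log2(peaks + 1) for S100A9-Flag minus that for S100A8-Flag was 0.34 (exact permutation of the proteins within treatment, p = 0.72, where the smallest possible p is 0.01), and it turned to -0.14 with the top peaks and to -0.032 in gene bodies.

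Gene by gene, peak number was higher in TAM for 9 of the 10 genes (exact permutation test, adjusted by Benjamini-Hochberg over 20098 genes, adjusted p ≤ 0.05). The same call was made for 60.9% of all genes. At 6 of the 10 genes every TAM library held more peaks than every EtOH library, compared with 36.2% of all genes. These were TGFB1, TGFB2, TGFB3, SMAD2, SMAD3 and SMAD4. The median of the genes' mean peak numbers was 3.25 in TAM and 0.40 in EtOH, beside 2.67 and 0.40 over all genes. Their windows were longer, with a median of 168.6 kb against 127.3 kb, and per 100 kb the TAM medians were 1.74 and 1.67 peaks. The smallest p was 0.01 for any gene, so that an adjusted p depends on how many of all genes reach it. Without either of the S100A8-Flag EtOH libraries none of the 10 genes and 0% of all genes were called, since the smallest unadjusted p was then 0.025, and 9 of the 10 had an unadjusted p under 0.05 in the same exact permutation test. Without any other library 6 to 8 of the 10 genes were called, beside 41.5 to 47.5% of all genes, and TGFBR1, SMAD6 and SMAD7 each lost the call in 10 of the 11 omissions. Counting peaks in the gene body alone, or in gene bodies with 10 kb, also called 0% of all genes and none of the 10, of which 3 and 6 had an unadjusted p under 0.05.

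**Figure D2:**
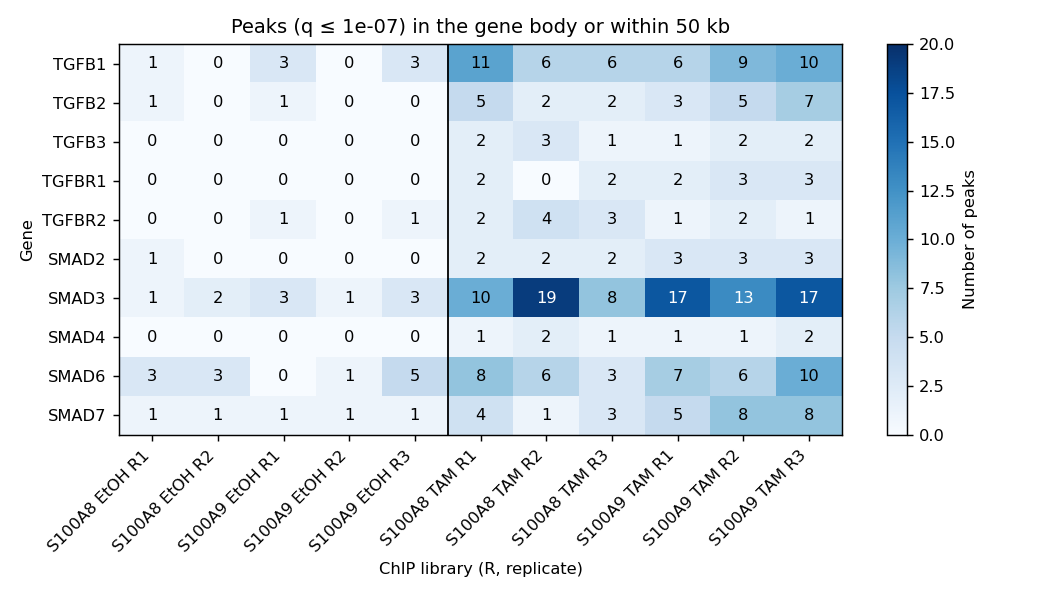
Number of peaks at each of the 10 genes (rows) in each ChIP library (columns, EtOH left of the line and TAM right), with color scaled to the printed number. SMAD3 reached 19 peaks in a TAM library, while TGFB3, TGFBR1 and SMAD4 had no peak at this threshold in any EtOH library.

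Among the ligands, TGFB1 had the most peaks, but most of them lay at promoters of neighboring genes. TGFB1 encodes the most widely expressed of the ligands. In EtOH its window held 1 and 0 peaks of S100A8-Flag and 3, 0 and 3 of S100A9-Flag. In TAM it held 11, 6 and 6 peaks of S100A8-Flag and 6, 9 and 10 of S100A9-Flag. The difference, averaged over the proteins, was 6.75 peaks (exact permutation test, adjusted p = 0.0242), and the groups did not overlap. Of the 9 confident sites at TGFB1 (chromosome 19, 41807492 to 41859827, minus strand), 6 lay at promoters of other genes. These were 2 each at HNRNPUL1 and CCDC97, 1 shared by B9D2 and TMEM91, and 1 shared by EXOSC5 and BCKDHA. Without such peaks the means were 3.33 peaks in TAM and 0.60 in EtOH (exact permutation test, unadjusted p = 0.02). TGFB1 site 1, the site of the window with the highest ranks, was at the promoter of HNRNPUL1 and was called in 6 of 6 TAM libraries, with percentiles of fold enrichment within the library of 88.6 to 99.

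The promoter of TGFB1 itself held site 6, with the summit 222 bp upstream of the TSS. It was called in 3 of 3 S100A9-Flag and 1 of 3 S100A8-Flag TAM libraries and in 1 EtOH library. In the S100A9-Flag TAM libraries its percentiles were 78, 88.6 and 59.4, and in the S100A8-Flag TAM library it was at 1.82. This summit also lies in a promoter of TMEM91, for which a transcript starts nearby, so that the site cannot be assigned to 1 of these genes. None of the motifs marked by capitals occurs in its printed sequence.

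TGFB2 and TGFB3, the ligands with roles in epithelial-mesenchymal transitions of development, had fewer peaks. TGFB2 (chromosome 1, 218518678 to 218617961, plus strand) had 1 and 0 peaks of S100A8-Flag and 1, 0 and 0 of S100A9-Flag in EtOH, and 5, 2 and 2 of S100A8-Flag and 3, 5 and 7 of S100A9-Flag in TAM (difference 3.58, exact permutation test, adjusted p = 0.0242). All TAM libraries were above all EtOH libraries. Of its 5 confident sites, 4 lay in introns and 3 had no peak in any EtOH library at any q. TGFB2 site 3, in an intron 32175 bp from the start of the gene, was called in 5 of 6 TAM libraries with percentiles of 63 to 95.9 and in no EtOH library. The promoter site, TGFB2 site 1, was called in 2 EtOH and 4 TAM libraries. TGFB3 (chromosome 14, 76424440 to 76449354, minus strand) had no peak in any EtOH library at this threshold. It had 2, 3 and 1 peaks of S100A8-Flag and 1, 2 and 2 of S100A9-Flag in TAM (difference 1.83, exact permutation test, adjusted p = 0.0242). Its promoter site, TGFB3 site 1, was called in 3 TAM libraries with percentiles of 39.5, 41.2 and 76.7. An ETS match begins 10 bp after the summit in its printed sequence. TGFB3 site 2, 6388 bp upstream, was called in 5 TAM libraries with percentiles of 12.3 to 66.

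Of the receptors, TGFBR2 had peaks in 2 EtOH libraries and TGFBR1 in none at this threshold. TGFBR1 (chromosome 9, 101866320 to 101916474, plus strand) encodes the type I receptor. In TAM it had 2, 0 and 2 peaks of S100A8-Flag and 2, 3 and 3 of S100A9-Flag (difference 2.00, exact permutation test, adjusted p = 0.0492). The S100A8-Flag TAM library with no peak overlapped with the EtOH libraries. Its promoter site, TGFBR1 site 1, was called in 3 of 3 S100A9-Flag TAM libraries, with percentiles of 74.9, 55.2 and 31.3, and in no S100A8-Flag library at this threshold. At q ≤ 0.05 all 6 TAM libraries and 2 EtOH libraries had a peak there. TGFBR1 site 2, in an intron 1630 bp from the start of the gene, was called in 1 S100A8-Flag and 3 S100A9-Flag TAM libraries.

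TGFBR2 (chromosome 3, 30648093 to 30735634, plus strand), the type II receptor that binds the ligand, was the gene of the 10 for which the test was not passed. It had no peak of S100A8-Flag and 1, 0 and 1 of S100A9-Flag in EtOH, and 2, 4 and 3 of S100A8-Flag and 1, 2 and 1 of S100A9-Flag in TAM (difference 1.83, exact permutation test, p = 0.06, adjusted p = 0.0862). The S100A9-Flag groups overlapped and the S100A8-Flag groups did not. Both EtOH peaks were at the promoter, in TGFBR2 site 3, with the summit 20 bp upstream of the TSS. There the EtOH percentiles were 90.9 and 56.4, and 4 TAM libraries had percentiles of 94.9, 53.3, 92.6 and 93.6. The printed sequence of this promoter holds the AP-1 match TGAGTCA 14 bp after the summit. AP-1 matches were also within 100 bp of the summits of TGFBR2 site 2, 10274 bp upstream, and TGFBR2 site 4, in an intron, each called in 2 S100A8-Flag TAM libraries and in no S100A9-Flag library.

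SMAD3, a receptor SMAD that binds DNA directly, had the most peaks of the 10 genes. In EtOH it had 1 and 2 peaks of S100A8-Flag and 3, 1 and 3 of S100A9-Flag. In TAM it had 10, 19 and 8 peaks of S100A8-Flag and 17, 13 and 17 of S100A9-Flag. The groups did not overlap (difference 12.1, exact permutation test, adjusted p = 0.0242). With a mean of 14 peaks in TAM, SMAD3 ranked 79 of 20098 genes, and per 100 kb, with 6.05 peaks, it ranked 1252. Per 1000 peaks of a library its mean was 0.54 in EtOH and 0.52 in TAM (unadjusted p = 0.92, exact permutation test).

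Of the 58 confident sites 17 were at SMAD3 (chromosome 15, 67356101 to 67487511, plus strand), 13 of them with the summit in an intron. The 5 sites at its promoters fell into 2 clusters, since SMAD3 has TSSs within the gene body. Near the first TSSs, SMAD3 site 4 was called in 6 TAM and 3 EtOH libraries, with percentiles of 4.61 to 99 in TAM and 36.9 to 84.7 in EtOH, and SMAD3 site 3 in 4 TAM libraries and 1 EtOH library. Between 61998 and 64406 bp downstream of the gene start, SMAD3 site 10, SMAD3 site 11 and SMAD3 site 12 were called in 3, 6 and 5 TAM libraries and in no EtOH library. SMAD3 site 11 and SMAD3 site 12 had no EtOH peak at any q. The 2 clusters thus differed in their EtOH calls, a difference that was not tested. Ranks at SMAD3 site 11 were low, with percentiles of 0.858 to 55.4, while those at SMAD3 site 12 ran from 9.75 to 92.2. AP-1 matches were within 100 bp of the summit at 6 of the 17 sites of SMAD3.

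**Figure D3:**
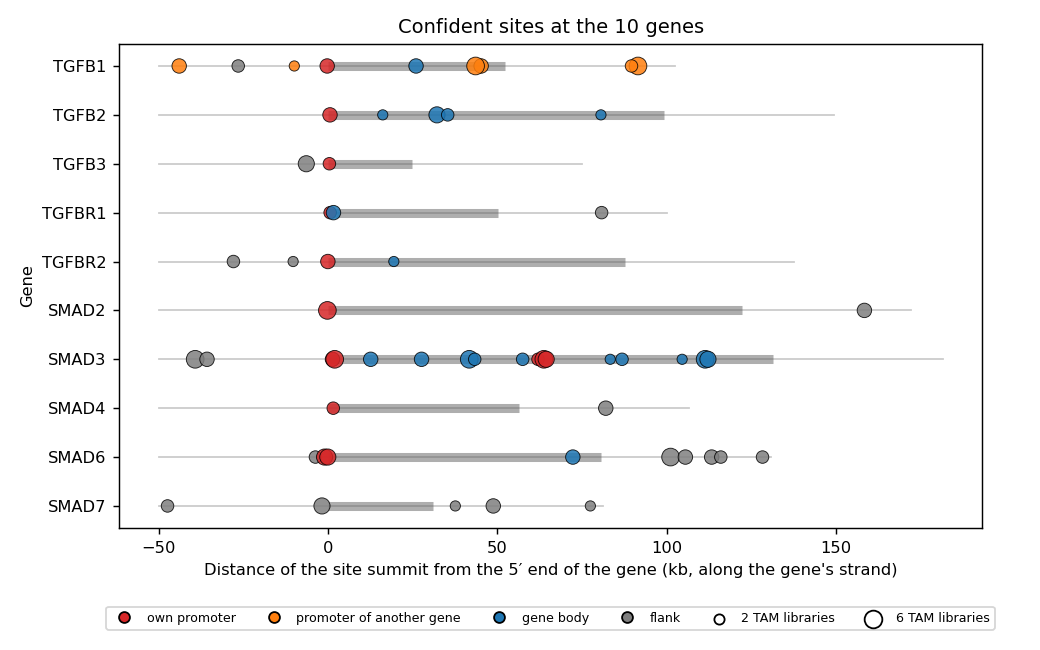
Confident sites at the 10 genes by distance of the summit from the 5′ end of the gene, in kb along its strand. Thick bars are gene bodies, thin lines the 50 kb flanks, colors the position, and point area the number of TAM libraries with a call (for scale, 2 and 6). SMAD3 has 17 sites, and 6 of 9 sites in the TGFB1 window lie at promoters of other genes.

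SMAD2 and SMAD4 had few peaks, most of them in TAM libraries. SMAD2 (chromosome 18, 45335328 to 45457517, minus strand), the other receptor SMAD, had 1 and 0 peaks of S100A8-Flag and none of S100A9-Flag in EtOH, and 2, 2 and 2 of S100A8-Flag and 3, 3 and 3 of S100A9-Flag in TAM (difference 2.25, exact permutation test, adjusted p = 0.0242). Its promoter site, SMAD2 site 2, was called in 6 of 6 TAM libraries with percentiles of 2.18 to 90.6 and in no EtOH library. A peak at weaker q was present there in 4 of 5 EtOH libraries. The printed sequence holds a KLF/SP1 match that begins 21 bp before the summit on the plus strand. SMAD2 site 1, in the flank beyond the gene, had a higher mean percentile over the TAM libraries, 55.2 against 54.4, and was called in 4 of them. SMAD4 (chromosome 18, 48554898 to 48611415, plus strand), the common SMAD, had no peak in any EtOH library at this threshold. It had 1, 2 and 1 peaks of S100A8-Flag and 1, 1 and 2 of S100A9-Flag in TAM (difference 1.33, exact permutation test, adjusted p = 0.0242). With every deposited peak its call was lost (exact permutation test, adjusted p = 0.0754). Its promoter site, SMAD4 site 1, was called in 3 TAM libraries, and 4 of 5 EtOH libraries had a peak there at weaker q. SMAD4 site 2, in the flank, was called in 4 TAM libraries with percentiles of 8.11 to 85.5.

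The inhibitory SMADs had peaks in most EtOH libraries. SMAD6 (chromosome 15, 66994574 to 67075187, plus strand), which mainly restrains signaling by bone morphogenetic proteins, had 3 and 3 peaks of S100A8-Flag and 0, 1 and 5 of S100A9-Flag in EtOH, and 8, 6 and 3 of S100A8-Flag and 7, 6 and 10 of S100A9-Flag in TAM. The groups overlapped (difference 4.17, exact permutation test, adjusted p = 0.0492). Per 1000 peaks of a library its mean was 0.59 in EtOH and 0.24 in TAM, which was lower in TAM at an unadjusted p of 0.04 (exact permutation test, adjusted p = 0.202). With the 1853 top peaks of each library, SMAD6 had 1.80 peaks in EtOH and 0.83 in TAM, so that the direction turned. SMAD7 (chromosome 18, 46446223 to 46477335, minus strand), which directs ubiquitin ligases to the receptors, had exactly 1 peak in each of the 5 EtOH libraries, and 4, 1 and 3 of S100A8-Flag and 5, 8 and 8 of S100A9-Flag in TAM (difference 3.83, exact permutation test, adjusted p = 0.0492). Its direction also turned with the top peaks, from 0.40 in EtOH to 0.17 in TAM.

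SMAD6 held the only confident site of the 10 genes for S100A8-Flag in EtOH. SMAD6 site 5, in the flank beyond the gene and 101123 bp from its start, was called in 3 EtOH and 6 TAM libraries. Its percentiles in EtOH were 84.3 and 41.9 for S100A8-Flag and 87.6 for S100A9-Flag, and in TAM they ran from 14.2 to 97.3. SMAD6 site 4, in an intron, was called in 3 EtOH libraries with percentiles of 1.97, 16.9 and 23.2 and in 4 TAM libraries. Of the 58 sites, SMAD6 site 4, SMAD6 site 5 and SMAD3 site 4 were the sites called in at least 3 EtOH libraries. At the promoter, SMAD6 site 3, with the summit 43 bp upstream of the TSS, was called in 2 EtOH and 5 TAM libraries with TAM percentiles of 54.9 to 98.3. SMAD6 site 2, 994 bp upstream, was called in 1 EtOH library and 5 TAM libraries. The palindrome GTCTAGAC, to which SMAD proteins are known to bind, begins 31 bp after the summit in the printed sequence of SMAD6 site 3.

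SMAD7 had 5 confident sites, all in the flanks of the gene and 5 of 5 confident for S100A9-Flag in TAM. SMAD7 site 2, 48793 bp downstream of the start of the gene, had the highest mean rank, with percentiles of 78, 46.2 and 82.4 for S100A9-Flag in TAM and 56.5 in 1 S100A8-Flag TAM library. A promoter peak was present in 3 TAM libraries and in 1 EtOH library, but the summits of the merged sites were outside the promoter. SMAD7 site 4 was the nearest, with the summit 1762 bp upstream of the TSS.

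Over the 10 genes, promoters were called more often in TAM. The number of genes with a promoter peak was 2 and 1 for S100A8-Flag and 4, 2 and 3 for S100A9-Flag in EtOH, and 6, 8 and 6 for S100A8-Flag and 6, 8 and 9 for S100A9-Flag in TAM. The groups did not overlap, with means of 2.40 ± 1.14 (SD, n = 5) and 7.17 ± 1.33 (SD, n = 6), and a difference over the proteins of 4.92 (exact permutation test, p = 0.01). Promoters of 6 of the 10 genes were called in at least 4 TAM libraries, against 35.6% of all genes, and promoters of 4 were called in at least 2 EtOH libraries, against 13.0%. The 6 genes were TGFB1, TGFB2, TGFBR2, SMAD2, SMAD3 and SMAD6, and the 4 were TGFB2, TGFBR2, SMAD3 and SMAD6. As a share of the peaks at the genes, peaks in promoters made up 46.0 ± 19.4% in EtOH (SD, n = 5) and 35.6 ± 5.41% in TAM (SD, n = 6), a difference over the proteins of -7.31 percentage points (exact permutation test, p = 0.41). With the 1853 top peaks of each library the difference in the number of promoters was -0.42 (exact permutation test, p = 0.51).

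At least 1 confident site was present at 1 of the 10 genes for S100A8-Flag in EtOH and at 4 for S100A9-Flag in EtOH, where 14.4% and 16.2% of all genes had one. The requirement of 2 replicates is stricter for S100A8-Flag in EtOH, which had only 2. In TAM all 10 genes had a confident site for S100A8-Flag and all 10 for S100A9-Flag, where the values over all genes were 75.6% and 81.9%. Of the 58 sites, 41 had no call in any EtOH library (70.7%, against 68.9% of all sites), and 13 had no EtOH peak at any q (22.4%, against 34.7%). Calls in all 6 TAM libraries were made at 9 sites (15.5%, against 14.3% of all sites). Sites that were confident for S100A9-Flag in TAM and in no other condition numbered 25 (43.1%, against 38.6% of all sites). Those confident for S100A8-Flag in TAM alone numbered 7 (12.1%, against 17.1%). SMAD6 site 4, confident for S100A9-Flag in both treatments, is in neither count. The same holds for TGFB1 site 2, confident for S100A8-Flag in TAM and S100A9-Flag in EtOH. Both proteins were confident in TAM at 24 sites, with a median of 21.0 bp between the S100A8-Flag and S100A9-Flag summits. By position, 14 sites were at promoters of the 10 genes, 6 at promoters of other genes, 18 in gene bodies and 20 in the flanks.

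**Figure D4:**
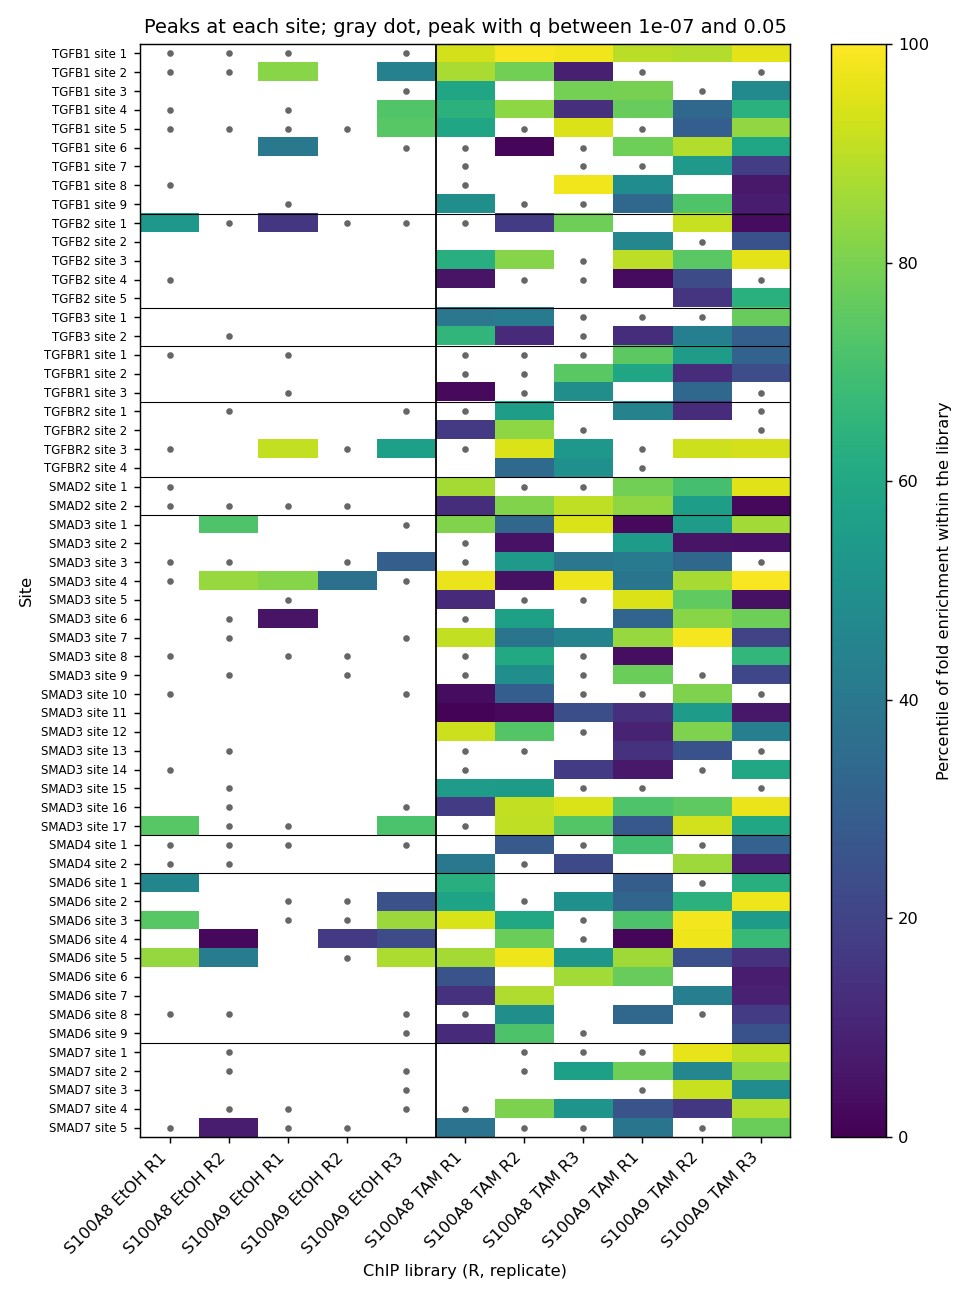
Percentile of fold enrichment within each library (color) of the peaks at the 58 confident sites (rows, grouped by gene) in the 11 libraries (columns, EtOH left of the line). White is no peak at q ≤ 1e-07 and a gray dot is a peak with q between 1e-07 and 0.05. Of the 58 rows, 41 have no colored cell in EtOH and 9 are colored in all 6 TAM libraries.

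Motifs were searched on both strands within 100 bp of each summit. AP-1 (TGAGTCA or TGACTCA) was found at 15 of the 58 sites (25.9%, 95% Wilson interval 16.3 to 38.4%), compared with 25.8% of the 30322 sites. Of these, 13 were among the 38 sites outside promoters (34.2%, against 34.6% of all such sites) and 2 among the 20 in promoters (10%, against 6.38%). The SMAD box GTCTG was found at 17 sites (29.3%, against 36.0%), and the GC-rich SMAD motif GGCGCC at 6 (10.3%, against 12.9%). The SMAD palindrome GTCTAGAC was found at SMAD6 site 3 and at none of the other sites, and in 0.0956% of all sites. ETS (CGGAAG) was found at 9 sites (15.5%, against 13.3%), KLF/SP1 (CCCCGCCC) at 7 (12.1%, against 10.5%), and TEAD (CATTCC) at 10 (17.2%, against 13.3%). STAT3 (TTCNNNGAA) was found at 3 sites (5.17%, against 5.69%) and C/EBP (TTGCNNAA) at 5 (8.62%, against 11.8%). CREB (TGACGTCA) was found at none, with an upper limit of the 95% Wilson interval of 6.21%, where 1.18% of all sites had it. None of these motifs contains another, although matches of different motifs may share bases. A match describes letters in the window and does not show that a factor was bound.

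Beyond the 10 genes, 51 other genes of the pathway were counted in the same way. Peak number was higher in TAM for 33 of the 51 genes (exact permutation test, adjusted p ≤ 0.05), beside the 60.9% of all genes, and lower for none of them, with or without adjustment. The groups did not overlap for 21 of the 51, beside the 36.2% of all genes. The count was 7 of 10 for other receptors and co-receptors, 1 of 3 for other SMADs, 3 of 7 for other ligands, 7 of 9 for genes of latency and activation, 9 of 14 for negative regulators, 1 of 1 for the SMAD anchor ZFYVE9 and 5 of 7 for target genes. Of the 5 with the highest mean in TAM, all were called and 4 are given here. They were ID1, a target gene that inhibits helix-loop-helix factors, with 12.7 ± 3.33 peaks in TAM and 3.00 ± 1.00 in EtOH, LTBP3 with 12 ± 2.68 and 2.20 ± 1.64, LTBP4 with 9.33 ± 2.73 and 2.40 ± 1.34, and NEDD4L with 9.17 ± 2.99 and 0.80 ± 0.84 (SD, n = 6 and 5). LTBP3 and LTBP4 encode proteins that bind latent TGF-β in the matrix, and NEDD4L encodes a ubiquitin ligase. CDKN2B, which encodes a cell cycle inhibitor induced by the pathway, had no peak in any library.

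Genes elsewhere in the genome followed the same pattern over the libraries. Among 8972 genes with at least 3 peaks on average in TAM and outside the windows of the 10 genes, the correlation of log2(peaks + 1) with the sum over the 10 genes had a median Pearson r of 0.879 over the 11 libraries. The highest values were 0.993 for ADAM8, 0.990 for MYH9 and 0.990 for TUBGCP2. These values share the lengths of the 11 lists, which differ mainly between EtOH and TAM.

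When peaks were counted per 1000 peaks of each library, no gene of the 20098 passed the adjusted test of TAM against EtOH (exact permutation test, smallest adjusted p = 0.0921). The smallest unadjusted p of this test is 0.01, so that an adjusted p depends on how many genes reach it. The result therefore does not show that no gene differed in share. At an unadjusted p of at most 0.05 there were 3007 genes with a larger share in TAM and 1102 with a smaller share. Of the 10 genes, TGFB3 (p = 0.01), SMAD4 (p = 0.01) and TGFBR1 (p = 0.03) were among the former by the same exact permutation test, each with 0 peaks in every EtOH library, and SMAD6 (p = 0.04) was among the latter. The mean TAM shares of TGFB3, SMAD4 and TGFBR1 were 0.068, 0.049 and 0.073 per 1000 peaks. Shares this small cannot be measured in the EtOH lists of 1853 to 4609 peaks. These 3 p values thus do not show a larger share in TAM.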

How the data were processed

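Peak lists of 11 Flag ChIP libraries were used. The authors aligned reads to hg19 (Bowtie2), discarded those without a unique position, and ran MACS2 on each library against its own input, without pooling replicates (versions not given in the sources used here). The deposited fold enrichment is a ratio to input at the summit, and the deposited −log10 p-value and −log10 q-value of each peak are those of MACS2. The authors' lists give summits in bp from the peak start and reach q = 0.05. The read filter of the study was not applied.

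Protein-coding genes on chromosomes 1 to 22 and X came from the GRCh37 lift of GENCODE 44 (refGene in the study), and peaks with q ≤ 1e-07 were assigned to them with 50 kb flanks. A promoter was the interval from 1500 bp before each TSS to 250 bp past it. Fold enrichments were ranked within a library (percentile) and not compared between libraries. Replicate regions overlapping by at least 1 bp were merged. Libraries were permuted exactly within protein, two-sided by doubling the smaller tail. Adjusted p values are by Benjamini-Hochberg over 20098 genes. The test per gene was checked on simulated peak numbers with lists of equal length. No pass condition was set for the simulation with the real list lengths. The members, lists and tests were chosen with earlier results of these data known. Sites were named by rule: the highest mean TAM percentile per gene, with 0 where not called, every site in a promoter of the 10 genes, and every site called in at least 3 EtOH libraries. Named pathway genes are the 5 with the highest TAM mean and any without a peak. A gene and a site that these rules select are not reported here. The genes most alike are the 3 with the highest Pearson r. Alternatives were other q thresholds, equal numbers of top peaks, other gene windows, promoters and overlaps, each library left out, and a replicate block. The study names the libraries biological replicates, but their labels do not say that they were separate cultures. The p values therefore rank the observed difference among rearrangements of these libraries only. Python 3.11.15, numpy 2.4.6, scipy 1.17.1, pandas 2.3.3, pysam 0.24.0 and matplotlib 3.10.9 were used.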

Additional observations from a re-analysis of the deposited data

Results flagged for a closer look

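Of the 10 genes, SMAD2 had the smallest p for a difference between the proteins in the effect of TAM, and only before correction was it under 0.05. S100A8-Flag had 1 and 0 peaks in EtOH and 2, 2 and 2 in TAM, and S100A9-Flag had 0, 0 and 0 in EtOH and 3, 3 and 3 in TAM. The effect was larger for S100A9-Flag by 1.5 peaks (exact permutation of the proteins within treatment, two-sided, p = 0.04). Adjusted by Benjamini-Hochberg over the 10 genes, the p was 0.3, so that the difference did not pass the correction. Its relation to the length of the lists was not tested.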

How the results depend on the processing

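The peak number at the 10 genes was higher in TAM under every alternative run, past the threshold except with the 1853 top peaks (log2 difference 0.12, exact permutation test, p = 0.67) and with the replicate block (2.64, exact permutation test, p = 0.0625, the smallest its 32 arrangements allow). The replicate block also gave 5.08 promoters (exact permutation test, p = 0.0625) and called 0 of the 10 genes. Since its smallest possible p of 0.0625 is above the threshold of 0.05, the block could not call any gene. That count therefore says nothing of the 10 genes. For same-numbered EtOH and TAM libraries, r of their deviations was between -0.0145 and 0.00489 over 5 pairs. For different numbers it was between -0.0109 and 0.0156. The 2 S100A8-Flag EtOH libraries gave values of equal size and opposite sign, and the check cannot exclude that the numbers mark pairs. The main tests did not treat the numbers as pairs. The 9 genes called became 5 at q ≤ 1e-10 (28.6% of all genes), 0 with top peaks, 0 in gene bodies and 0 with 10 kb flanks (0% of all genes in each), and 0 to 8 with a library left out (0 to 47.5% of all genes). With 100 kb flanks 10 were called (75.7% of all genes). With every deposited peak 9 were called (70.1% of all genes), with TGFBR2 gained and SMAD4 lost. The difference in promoters was 2.00 with every deposited peak (exact permutation test, p = 0.06) and -0.42 with top peaks. The difference in share was -0.42 with every peak (exact permutation test, p = 0.01), 0.14 with top peaks, and -0.25 to 0.0067 with a library left out. S100A9-Flag minus S100A8-Flag in share turned to -0.055 at q ≤ 1e-10, -0.075 with every peak and -0.42 with top peaks in TAM, and in EtOH to -0.24 with top peaks and -0.23 with 100 kb flanks. The difference between the proteins in the TAM effect turned to -0.14 with top peaks and -0.032 in gene bodies, and was -0.18 to 0.72 with a library left out. With top peaks the differences of SMAD6 and SMAD7 were -1.08 and -0.17 peaks, neither of which passed the adjusted exact permutation test. Confident sites numbered 34 at q ≤ 1e-10, 103 with every peak, 5 with top peaks, 112 with at least 1 replicate and 27 with every replicate, and 45 to 58 with a library left out. At q ≤ 1e-10 the share of 1 EtOH library was 0, so TAM against EtOH and the proteins in EtOH could not be compared in share. Read depth is unknown, which limits every comparison of peak number between libraries.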
